A study of Mus musculus with 34 samples.

Results

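The arrays measured 85 genes of the synaptic vesicle and SNARE machinery among the 8251 mouse genes that the platform annotation names with a single symbol. They were chosen by name: symbols that begin with Syt, Vamp, Stx, Stxbp, Snap, Sv2, Cplx, Rims, or Rab and a digit, together with Syn1, Syn2, Syn3, Syp, Nsf, Napa and Napb. These genes had 110 of the 12422 probe sets, and each of the 23 genes with several probe sets is represented by its brightest one, that with the highest mean of log2(signal + 16) over all 34 arrays. By role the set held 33 Rab GTPases, 12 synaptotagmins, 10 syntaxins, 7 vesicle SNAREs of the Vamp family, 3 genes of the SNAP-25 family, 3 genes for the ATPase NSF and its adaptors, 2 complexins, 2 Stxbp genes, and the vesicle proteins Syn2 and Syp. A further 4 genes are named as partners of Rab proteins (Rab11fip5, Rab3il1, Rab3ip and Rab5if), and Sytl4, Snapin and Snap91 stand alone in their roles. The name rule also took in Snapc2 and Snapc3, subunits of a complex that starts transcription of small nuclear RNA genes, and Rab10os and Rab26os, RNAs transcribed opposite Rab genes. None of these 4 is a SNARE or vesicle gene.

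Neurotransmitter is released when a vesicle fuses with the presynaptic membrane. The vesicle SNARE Vamp2 zips together with the membrane SNAREs Stx1a and Snap25, complexins hold the partly assembled bundle, and synaptotagmins such as Syt1 trigger its completion when calcium enters. NSF and its adaptors then take the bundle apart, and Rab GTPases mark each vesicle and organelle for the next step. Both neocortex and hippocampus are rich in such synapses, and other family members serve the endoplasmic reticulum, Golgi, endosomes and lysosomes of every cell.

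The mice were males that received saline, kainate or nicotine by intraperitoneal injection on postnatal day 23. Kainate (15 mg/kg) excites neurons through glutamate receptors and can cause seizures, and nicotine (10 mg/kg) acts on nicotinic acetylcholine receptors. Every mouse was injected 3 times, 2 h apart, and the animals that survived were killed on postnatal day 30, 7 days later. Neocortex and hippocampus were hybridized separately, which gave 6 saline, 5 kainate and 6 nicotine arrays per region, which the labels call biological replicates. The kainate and nicotine groups hold only survivors, and the strain, genotype and the number of mice that died are not given in the sources used here. The labels do not tie the arrays of both regions to a mouse, so arrays were treated as independent.

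The values are MAS5 signals on a linear scale, with every array scaled to 1 common trimmed mean of about 1000. A signal can be compared between arrays for 1 probe set, but not between genes, because probe sets differ in how well they bind. Correlations between arrays ran from 0.916 to 0.969. The median signal of an array was 381.1 to 391.2 in the saline hippocampus, 403.4 to 438.5 in the kainate hippocampus and 395.2 to 434.6 in the nicotine hippocampus, so every drug array of that region lay above every saline array. Of 5 tested markers of hippocampal granule and CA cells 4 were higher in the saline hippocampus (5.86% of all genes were). Of 4 tested neocortical markers 3 were lower there (5.44% of all genes were). Both directions go with the region labels. The lists were chosen with earlier results of these data known, so they are no independent check of the labels. A gene was tested with limma where its mean log2 level over the arrays fitted was at or above the 30th percentile of all probe sets (a signal of about 129.7), and it was called at a Benjamini-Hochberg adjusted p under 0.05 over all tested probe sets. Fold changes are on the log2(signal + 16) scale, which understates the change of dim genes.

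Between the saline regions, 6 of the 78 tested vesicle and SNARE genes differed, against 11.3% of all genes tested. In the saline hippocampus 5 were lower than in the saline neocortex (5.44% of all genes were) and 1 was higher (5.86% of all genes were). The release machinery proper supplied Stx1a, Cplx1 and Snap25, all lower in the hippocampus; the other called genes were the GTPases Rab33a and Rab1a, also lower, and Rab3ip, which was higher. The groups did not overlap for Stx1a, Cplx1, Snap25 and Rab3ip, while 6.69% of all tested genes were separated in this way. The median log2 difference of the members was -0.03, and that of all genes was 0.01. In RNA from whole tissue, fewer cells of a type and less RNA per cell cannot be told apart, here and in every comparison that follows.

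Stx1a, the syntaxin of the presynaptic membrane, showed the largest difference of the set. Its signal in the saline neocortex was 8382 at the lowest, 9536 at the median and 11117 at the highest, and in the saline hippocampus 2801 at the lowest, 2938 at the median and 3392 at the highest. All 6 hippocampal arrays thus lay far below all 6 neocortical arrays, and the means were 9742 ± 1035 (SD, n = 6) and 3047 ± 272 (SD, n = 6). The log2 difference was -1.67 ± 0.10 SE, or 3.18-fold lower in the hippocampus, with an adjusted p of 1.76e-14 (limma). The drugged animals kept the same order. After kainate the 5 neocortical signals of Stx1a were 8244, 9286, 10681, 11027 and 11211, and the 5 hippocampal ones were 2327, 2448, 2766, 2848 and 3521. After nicotine they ran from 9711 to 11654 in the neocortex and from 2275 to 3664 in the hippocampus, and neither drug comparison called Stx1a in either region. The other 9 syntaxins ran from -0.22 to 0.34 on the log2 scale, and none of them was called.

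**Figure D1:**
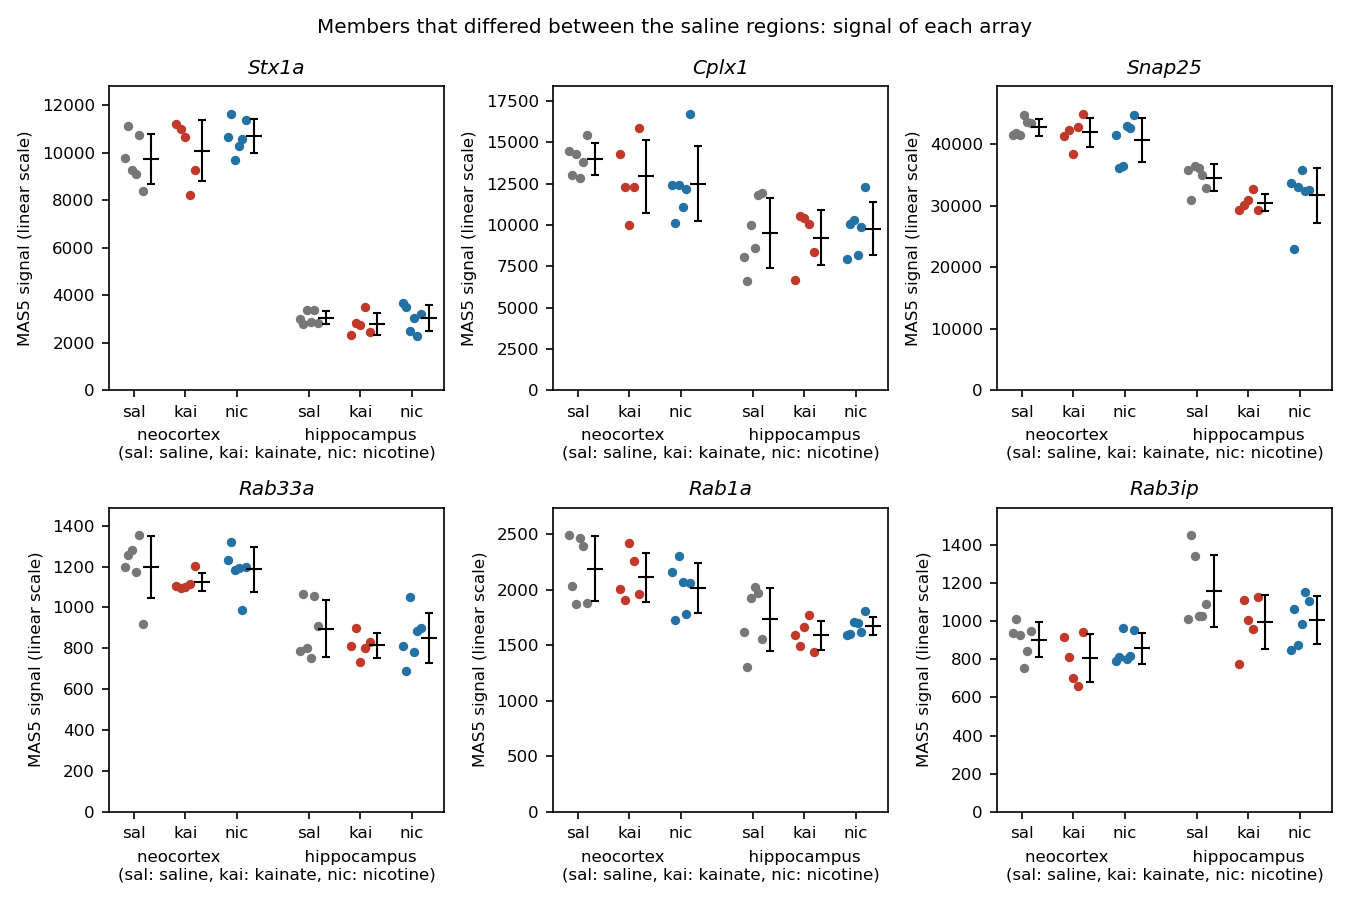
MAS5 signal (linear scale) of the 6 genes called between the saline regions, 1 point per array, for saline (grey), kainate (red) and nicotine (blue) in each region, with the group mean and SD as a bar. The Stx1a signals of the 3 hippocampal groups sit between 2275 and 3664, below every neocortical array, while the other 5 genes differ by smaller steps.

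Cplx1, a complexin that clamps and then helps the SNARE bundle, had 12854 at the lowest, 14071 at the median and 15415 at the highest in the saline neocortex. The saline hippocampus had 6614 at the lowest, 9315 at the median and 11949 at the highest, again with no overlap. The difference was -0.58 ± 0.13 SE on the log2 scale (1.5-fold lower, limma adjusted p 0.00242). Cplx2, its close relative, was 0.08 apart and not called (adjusted p 0.848). Snap25, the membrane SNARE that pairs with Stx1a, had 41434 at the lowest, 42594 at the median and 44819 at the highest in the neocortex and 30863 at the lowest, 35404 at the median and 36413 at the highest in the hippocampus. That step was small but even: the highest hippocampal array stood below the lowest neocortical one, and the log2 difference was -0.31 ± 0.07 SE (1.24-fold lower, limma adjusted p 0.00379). Snap23 and Snap47, the other measured relatives, were 0.18 and -0.11 apart and were not called. The calls of Stx1a, Cplx1 and Snap25 held in all 11 alternative settings and in all 12 fits that left out 1 saline array.

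Rab33a, a GTPase of Golgi-derived vesicles, had 918 at the lowest, 1227 at the median and 1354 at the highest in the saline neocortex and 752 at the lowest, 856 at the median and 1068 at the highest in the saline hippocampus. The ranges overlapped through 1 low neocortical array, and the log2 difference was -0.41 ± 0.11 SE (limma adjusted p 0.00669). Rab1a, which guides vesicles from the endoplasmic reticulum to the Golgi, ran from 1872 to 2490.1 in the neocortex and from 1302 to 2019 in the hippocampus, and these ranges overlapped too. Its difference was -0.34 ± 0.10 SE with an adjusted p of 0.0218. The call of Rab1a was lost without saline hippocampus replicate 2 (adjusted p 0.0904) or 6 (0.0568), and without saline neocortex replicate 1 (0.0634), 4 (0.0626) or 5 (0.0567). With the mean over both of its probe sets the difference was -0.10.

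The bases upstream of the start are shown for the called release genes Stx1a and Cplx1 and for Rab33a, so that the differing genes can be set against their promoters, and the called genes Snap25, Rab1a and Rab3ip are named only. They are the 250 bases before the start that the RefSeq promoter window gives on GRCm38.p6, written 5′ to 3′ on the gene's own strand: Stx1a at chr5:135023232-135023481 (plus strand), Cplx1 at chr5:108550028-108550277 (minus strand) and Rab33a at chrX:48519035-48519284 (plus strand). Among all genes with 1 window, that start matched the RefSeq gene start for 17087 and differed for 5775. Capitals mark a GC box, the letters GGGCGG or their reverse complement CCGCCC, a site known to bind Sp1.
Stx1a: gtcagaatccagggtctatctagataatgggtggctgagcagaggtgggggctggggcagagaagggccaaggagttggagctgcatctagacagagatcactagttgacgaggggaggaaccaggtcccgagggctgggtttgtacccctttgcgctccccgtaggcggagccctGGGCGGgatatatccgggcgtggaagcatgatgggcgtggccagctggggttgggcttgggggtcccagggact
Cplx1: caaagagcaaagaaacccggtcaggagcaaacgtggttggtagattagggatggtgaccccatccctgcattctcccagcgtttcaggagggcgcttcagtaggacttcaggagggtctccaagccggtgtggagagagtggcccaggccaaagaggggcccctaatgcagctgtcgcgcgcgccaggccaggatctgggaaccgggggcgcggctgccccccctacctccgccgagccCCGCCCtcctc
Rab33a: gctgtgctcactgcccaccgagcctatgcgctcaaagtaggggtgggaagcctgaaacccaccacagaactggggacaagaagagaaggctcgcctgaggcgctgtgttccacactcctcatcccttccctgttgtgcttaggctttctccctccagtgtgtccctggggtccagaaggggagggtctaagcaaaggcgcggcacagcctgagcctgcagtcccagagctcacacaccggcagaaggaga
Stx1a has a GC box on the gene's strand at base -74 and Cplx1 has it on the opposite strand at base -11, counted back from the start. The Rab33a window holds none of the motifs searched, which were the cyclic AMP response element TGACGTCA, the GC box GGGCGG, the TATA box TATAAA, the CCAAT box and TCAGCACC, the left part of the REST site, each on both strands. RefSeq windows were found for 73 of the 85 genes, 92 windows in all. The GC box was present in 63% of these and in 32.7% of all 32851 windows, TATAAA in 5.43% and 12.4%, CCAAT in 38% and 33.8%, TGACGTCA in 3.26% and 1.55%, and TCAGCACC in 3.26% and 1.32%. A match describes the letters in the window and not a bound site.

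Rab3ip, an exchange factor that loads Rab proteins with GTP, was the only called member that was higher in the hippocampus. It had 752 at the lowest, 935 at the median and 1014 at the highest in the saline neocortex and 1015 at the lowest, 1059 at the median and 1453 at the highest in the saline hippocampus, where the lowest array stood just above the highest neocortical one. The log2 difference was 0.34 ± 0.12 SE, with an adjusted p of 0.0498 that lay at the threshold. Its dimmer probe set read -0.18 (adjusted p 0.728), so the probe sets differ in sign, and the mean over both gave 0.08. The call was lost without saline hippocampus replicate 2 (adjusted p 0.154), 3 (0.123) or 6 (0.0621), and without saline neocortex replicate 1 (0.0612), 3 (0.0693), 4 (0.133), 5 (0.0972) or 6 (0.0565).

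Of the 8 synaptotagmins tested, 7 had a negative difference and none was called. The dimmer probe set of Syt3 read 0.81 (adjusted p 0.0641), against its sign in that count, and that of Syt2 -0.26. Syt1 and Syt2, the fast calcium sensors of release, came closest: Syt2 was -0.56 ± 0.19 SE (adjusted p 0.0567) and Syt1 -0.48 ± 0.17 SE (adjusted p 0.0701). Syt1 had 6329.9 at the lowest, 9963 at the median and 12401 at the highest in the saline neocortex and 4577 at the lowest, 7229 at the median and 10266 at the highest in the saline hippocampus, with wide overlap. Syt4, a synaptotagmin of dense core vesicles, was -0.48 ± 0.19 SE (adjusted p 0.112). Nsf, the ATPase that recycles SNARE bundles, went the other way at 0.32 ± 0.12 SE and also missed the threshold (adjusted p 0.0864). The 6 tested vesicle SNAREs split 3 to 3 in sign, and Vamp2, the main vesicle SNARE of the synapse, read -0.05 ± 0.07 SE: its signal was 28539 ± 1615 (SD, n = 6) in the neocortex and 27686 ± 2598 (SD, n = 6) in the hippocampus. The dimmer Vamp2 probe set read -0.35 (adjusted p 0.145). The 31 tested Rab GTPases had a median of 0.01 and ran from -0.57 to 0.52. Marker lists of cell types differed between the saline regions as well: 3 of 7 interneuron markers were lower in the hippocampus (summed signal 28161 to 32359, against 35779.7 to 40599 in the neocortex), while 2 of 5 tested excitatory neuron markers were higher and 3 lower (summed signal 18211 to 27121 against 27599.9 to 35475). Tbr1, 1 of these 3 lower ones, is also 1 of the neocortical markers counted as lower above. Of the other lists, 1 of 9 neuron markers was lower, 2 of 7 astrocyte markers and 3 of 6 oligodendrocyte markers were higher, and 0 of 11 microglia and macrophage markers were called. Choroid plexus and meninges markers had 2 higher of 6 (Dcn and Folr1), with a summed signal of 13128 to 24015 in the hippocampus and 11278 to 13725 in the neocortex. Summed signals, here and below, add all measured genes of a list, tested or not, and bright probe sets weigh most in them. No marker was listed at 0, and the part of cell composition in the differences above was not tested.

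Other genes of the synapse, taken from 6 lists of partners, differed between the saline regions in both directions, where 11.3% of all tested genes were called. The lists were chosen with earlier results of these data known. Of 13 tested release site and docking genes, 3 were higher in the hippocampus and 1 lower: the calcium-binding Doc2b at 1.82, the liprin Ppfia4 at 0.67 and the scaffold Lin7c at 0.61, against the calcium channel Cacna1a at -0.70 (log2 differences, limma). Of 10 tested genes for other vesicle proteins 3 were lower, Syngr1 at -0.85, Sncb at -0.61 and Pacsin1 at -0.45. Endocytosis genes gave 2 higher (Sh3gl1, Bin1) and 1 lower (Ap2a1) of 18, the vesicular proton pump 1 lower of 13 (Atp6v0a1), and dense core vesicle genes 3 lower of 8 (Pcsk1, Chga and Scg5). On the receiving side of the synapse, 2 of 9 genes were higher, the scaffold Homer3 and the kinase subunit Camk2b. A further 3 were lower, the scaffolds Homer1 and Dlg1 and the kinase subunit Camk2a, which is also 1 of the excitatory neuron markers counted above.

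After kainate, 1 of the 77 vesicle and SNARE genes tested in the hippocampus was called, against 3.04% of all genes tested. The called gene was Rab5if, a membrane protein named for its binding to Rab5, and it was lower. The release machinery itself had no called member: the SNAREs, synaptotagmins, complexins, Stxbp genes, NSF and its adaptors, and the vesicle proteins gave 0 calls. At an unadjusted p under 0.05 (limma) 9 members passed, which is 11.7% of them, against 14.9% of all genes. The median log2 change of the members was -0.07 with 47 of 77 negative, and that of all genes was 0.00.

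Rab5if had 2298 at the lowest, 2888 at the median and 3201 at the highest in the saline hippocampus, and the 5 kainate arrays gave 1688, 1914, 2287, 2360.4 and 2374. Only the lowest saline array fell within the kainate range. The log2 change was -0.43 ± 0.11 SE (1.34-fold lower, limma adjusted p 0.0377). In the kainate neocortex the signal of Rab5if was 2587 ± 209 (SD, n = 5), beside 2657 ± 184 (SD, n = 6) with saline. The call was lost without kainate hippocampus replicate 3 (adjusted p 0.0906) or 4 (0.129). It was also lost without saline hippocampus replicate 1 (0.051), 2 (0.0567), 4 (0.0824), 5 (0.0909) or 6 (0.0804).

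The next members by p were Rab6a and Snapc3, neither of which passed. Rab6a, a Golgi GTPase, had 12617 at the lowest, 16285 at the median and 16993 at the highest with saline and 11544, 12824, 12941, 13000.4 and 13534 with kainate. The lowest saline array fell inside the kainate range and the other 5 stood above it, and the change was -0.29 ± 0.08 SE on the log2 scale (adjusted p 0.0626, and 0.00922 without saline hippocampus replicate 6). The dimmer probe set of Rab6a read -0.06, and the mean over both gave -0.17. Snapc3, the transcription factor subunit that shares only its letters with the SNAP family, had 588 at the lowest, 654 at the median and 719 at the highest with saline and 256, 387, 435, 519 and 571 with kainate. It was the one member whose kainate arrays all lay below the saline arrays (3.69% of all tested genes were separated), and its change was -0.62 ± 0.18 SE (adjusted p 0.079, and 0.0451 without kainate hippocampus replicate 1). With the mean over both of its probe sets Snapc3 read -0.11.

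**Figure D2:**
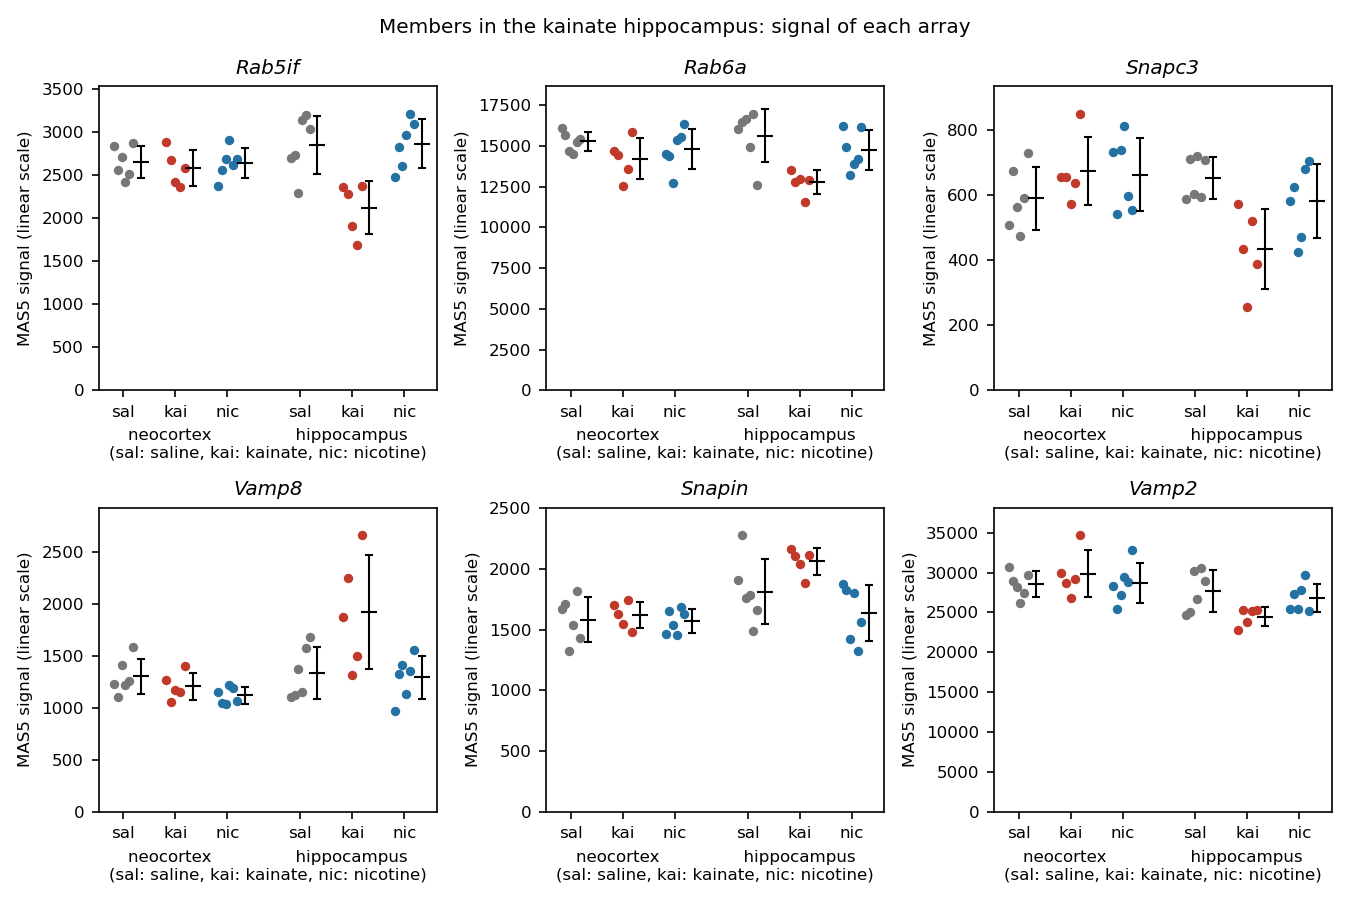
MAS5 signal (linear scale) of 6 members, 1 point per array, for saline (grey), kainate (red) and nicotine (blue) in each region, with the group mean and SD as a bar. Rab5if, Rab6a and Snapc3 are lowest in the kainate hippocampus, Vamp8 spreads upward there from 1314 to 2665, and the neocortical groups overlap in every panel.

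Vamp8, a vesicle SNARE of endosomes and lysosomes and of secretion in cells outside the nervous system, had 1104 at the lowest, 1263 at the median and 1684 at the highest in the saline hippocampus and 1314, 1503, 1880.3, 2254 and 2665 with kainate. These ranges overlapped, and the change of 0.49 ± 0.17 SE did not pass (adjusted p 0.151). Vamp2, in contrast, read -0.17 ± 0.07 SE (adjusted p 0.249): 24631 at the lowest, 27827 at the median and 30582 at the highest with saline, and 22737, 23821, 25205, 25263 and 25369.9 with kainate. The dimmer Vamp2 probe set read 0.02 (adjusted p 0.974), so its probe sets differ in sign. Its SNARE partners read -0.18 ± 0.09 SE for Snap25 (adjusted p 0.38) and -0.14 ± 0.12 SE for Stx1a (adjusted p 0.672). Syt1 read 0.21 ± 0.18 SE, Cplx1 -0.03 ± 0.15 SE, Syp -0.09 ± 0.15 SE and Syn2 0.05 ± 0.11 SE, with adjusted p from 0.651 to 0.956. Rab3b, a GTPase of secretory vesicles, had the most negative value of the set at -0.63 ± 0.24 SE (adjusted p 0.196), and Rab3il1, an exchange factor for Rab proteins, the most positive at 0.58 ± 0.23 SE (adjusted p 0.24). All 3 genes for NSF and its adaptors were negative, from -0.29 for Napa to -0.07 for Napb, and both Stxbp genes were positive, Stxbp3 at 0.45 ± 0.20 SE and Stxbp2 at 0.26 ± 0.13 SE, although the dimmer probe set of Stxbp2 read -0.18.

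The scaling of the arrays bears on these signs. With each array centred on its median the median change of all genes moved to -0.11 and that of the members to -0.18. Then 4 members were called lower, Rab5if, Rab6a, Snapc3 and Vamp2, beside 5.65% of all genes called. This centring shifts all genes of an array alike, so members minus all genes stayed at -0.07. Quantile normalization gave medians of -0.07 for the members and -0.03 for all genes. With it 1 member was called, and 2.74% of all genes were. Markers of other cells moved in the same tissue. All 11 tested microglia and macrophage markers were higher after kainate in the hippocampus. The summed signal of the 14 measured ones was 49074 to 78251, against 17687 to 20402 with saline. Of the astrocyte markers 3 of 7 were higher (61459 to 71158 against 39150.1 to 43882). Neuron markers gave 0 calls of 9 (63468 to 71028 against 68199 to 78938), excitatory neuron markers 0 of 5 (17475 to 19867 against 18211 to 27121), and interneuron markers 2 lower of 7 (22816 to 25613 against 28161 to 32359). Markers of hippocampal granule and CA cells had 2 lower of 5 (8104 to 8836 against 10897 to 12223). No marker was listed at 0, and the part of these shifts in the values of Rab5if, Vamp8 and the other members was not tested. Of the partner lists, the one for other vesicle proteins had calls, Scamp2 at 0.63 and the vesicular GABA transporter Slc32a1 at -0.43. Slc32a1 is also 1 of the 2 interneuron markers counted as lower above. The 13 release site genes, 18 endocytosis genes, 13 proton pump genes, 8 dense core vesicle genes and 9 postsynaptic genes had 0 calls.

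In the neocortex kainate gave 0 calls among 78 tested members by limma, against 0.0155% of all genes, and 2 members passed at an unadjusted p under 0.05 (2.56% of them, against 5.42% of all genes). The smallest p belonged to Sytl4, a granule protein that binds Rab27: its signals were 35.9 at the lowest, 124 at the median and 203 at the highest with saline and 152, 163, 216, 324 and 347 with kainate, near the dim end of the tested range. The groups overlapped, and the log2 change was 0.97 ± 0.33 SE (adjusted p 0.811). Rab10, a GTPase of endosomes and the Golgi, read 0.38 ± 0.16 SE (adjusted p 0.874), with 1425 at the lowest, 1683 at the median and 2097 at the highest under saline and 1677, 1763, 2234, 2692 and 3120.2 under kainate. The dimmer Rab10 probe set read 0.04, and the mean over both gave 0.21. Snap91, a clathrin assembly protein that helps rebuild vesicles, read 0.36 ± 0.19 SE (adjusted p 0.903). No member was separated between these groups. The summed signal of microglia and macrophage markers was 19639.9 to 24432 here, against 17538 to 20289 with saline, with 0 of 10 tested markers called. Of the astrocyte markers 1 of 7 was higher, Gfap at 1.07 (adjusted p 0.00139), the single gene of all 6435 tested that was called in this comparison, and their summed signal was 34415 to 41790.3 against 29979.7 to 37993. The 5 measured markers of hippocampal granule and CA cells summed to 7173 to 7925 against 5746 to 6405, with no overlap. None of the 3 tested was called, and the part of these values in those of the members was not tested.

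**Figure D3:**
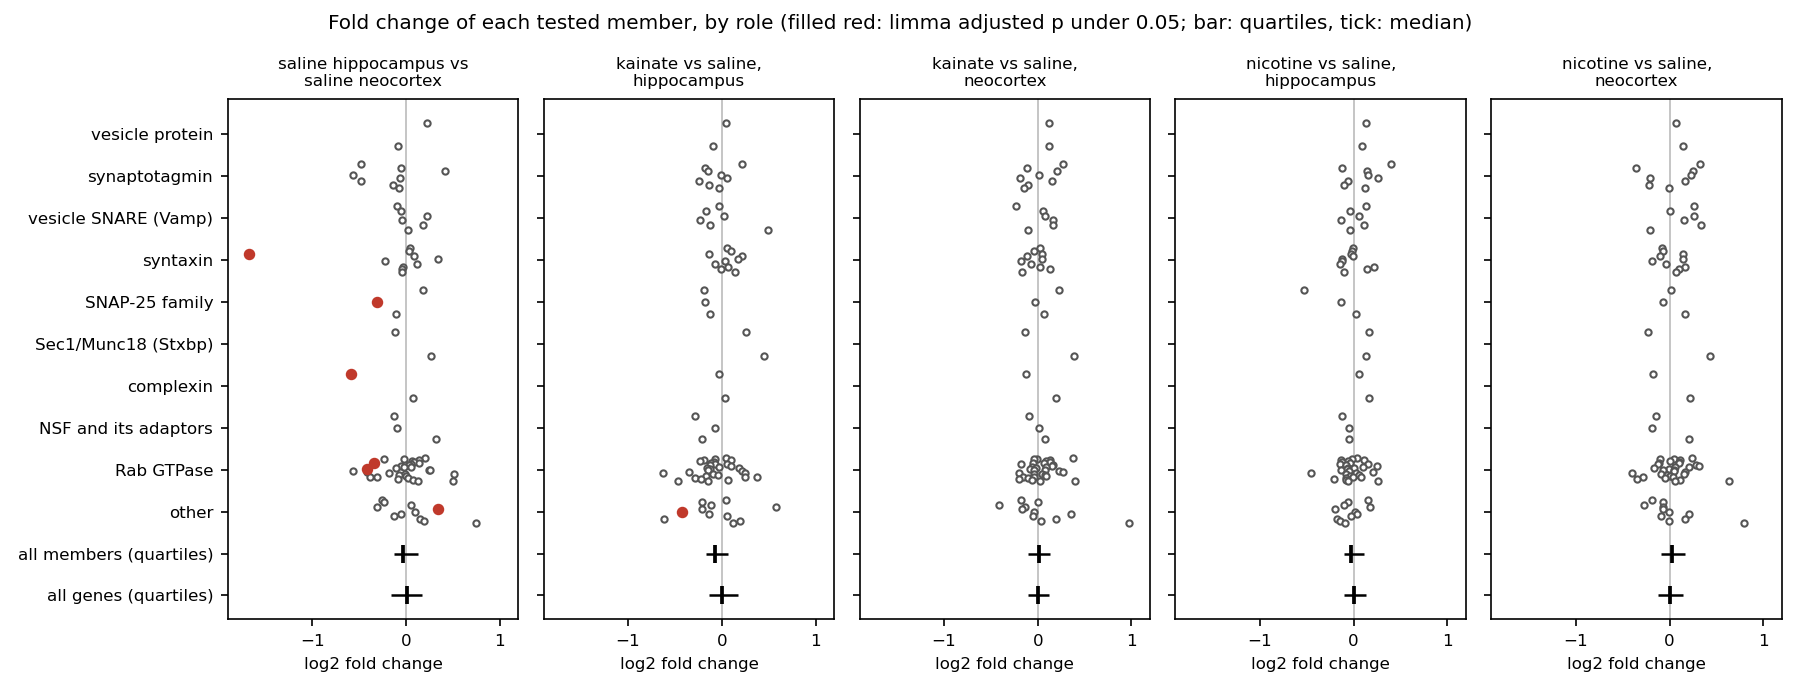
log2 fold change of each tested member in 5 comparisons, grouped by role, with called genes filled in red, and below them the quartiles (bar) and median (tick) of all members and of all tested genes. Stx1a stands alone at -1.67 between the saline regions, and in the drug comparisons the quartiles of the members and of all genes both span 0, with Rab5if the single called point.

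Nicotine changed no vesicle or SNARE gene past the threshold in either region. In the hippocampus 0 of 77 members were called by limma (0% of all genes), and 1 passed at an unadjusted p under 0.05 (1.30% of them, against 5.87% of all genes). That gene was Syt1, the calcium sensor of fast release, at 0.40 ± 0.17 SE (adjusted p 0.851). Its signals were 4577 at the lowest, 7229 at the median and 10266 at the highest with saline and 6790.2 at the lowest, 9586 at the median and 11350.1 at the highest with nicotine, with overlap across most of the range. Stx7, a syntaxin of endosomes, read 0.14 ± 0.07 SE (4280.4 ± 232 (SD, n = 6) with saline and 4735 ± 351 (SD, n = 6) with nicotine), and Rab3b -0.45 ± 0.23 SE (1056 ± 174 (SD, n = 6) and 811 ± 313 (SD, n = 6)). Both had an adjusted p of 0.853, and with median centring Stx7 read 0.08. Nicotine gave 0 calls in the marker and partner lists of either region.

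In the neocortex nicotine likewise gave 0 calls among 78 members by limma (0% of all genes), but 9 passed at an unadjusted p under 0.05, which is 11.5% of them against 9.74% of all genes. Syt11, a synaptotagmin that does not bind calcium, had the smallest p: 7459.8 at the lowest, 8287 at the median and 9179.7 at the highest with saline and 5852 at the lowest, 6138 at the median and 8069 at the highest with nicotine. All nicotine arrays but the highest lay below the saline range, and the log2 change was -0.36 ± 0.10 SE (adjusted p 0.337). Syt5 was the only member whose nicotine arrays all lay below the saline arrays (0.575% of all tested genes were separated), with 4784 at the lowest, 5015 at the median and 5888 at the highest against 3902 at the lowest, 4447 at the median and 4588 at the highest, a change of -0.22 ± 0.07 SE (adjusted p 0.404). Rab7, the GTPase of late endosomes and lysosomes, read -0.34 ± 0.11 SE (adjusted p 0.404), from 5172 ± 502 (SD, n = 6) to 4099 ± 636 (SD, n = 6). Its probe set carries a suffix that marks probes shared between transcripts, the dimmer one read -0.05 (adjusted p 0.904), and the mean over both gave -0.19. Syt1 read 0.33 ± 0.15 SE in the neocortex, near its hippocampal value, and again did not pass (adjusted p 0.509).

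**Figure D4:**
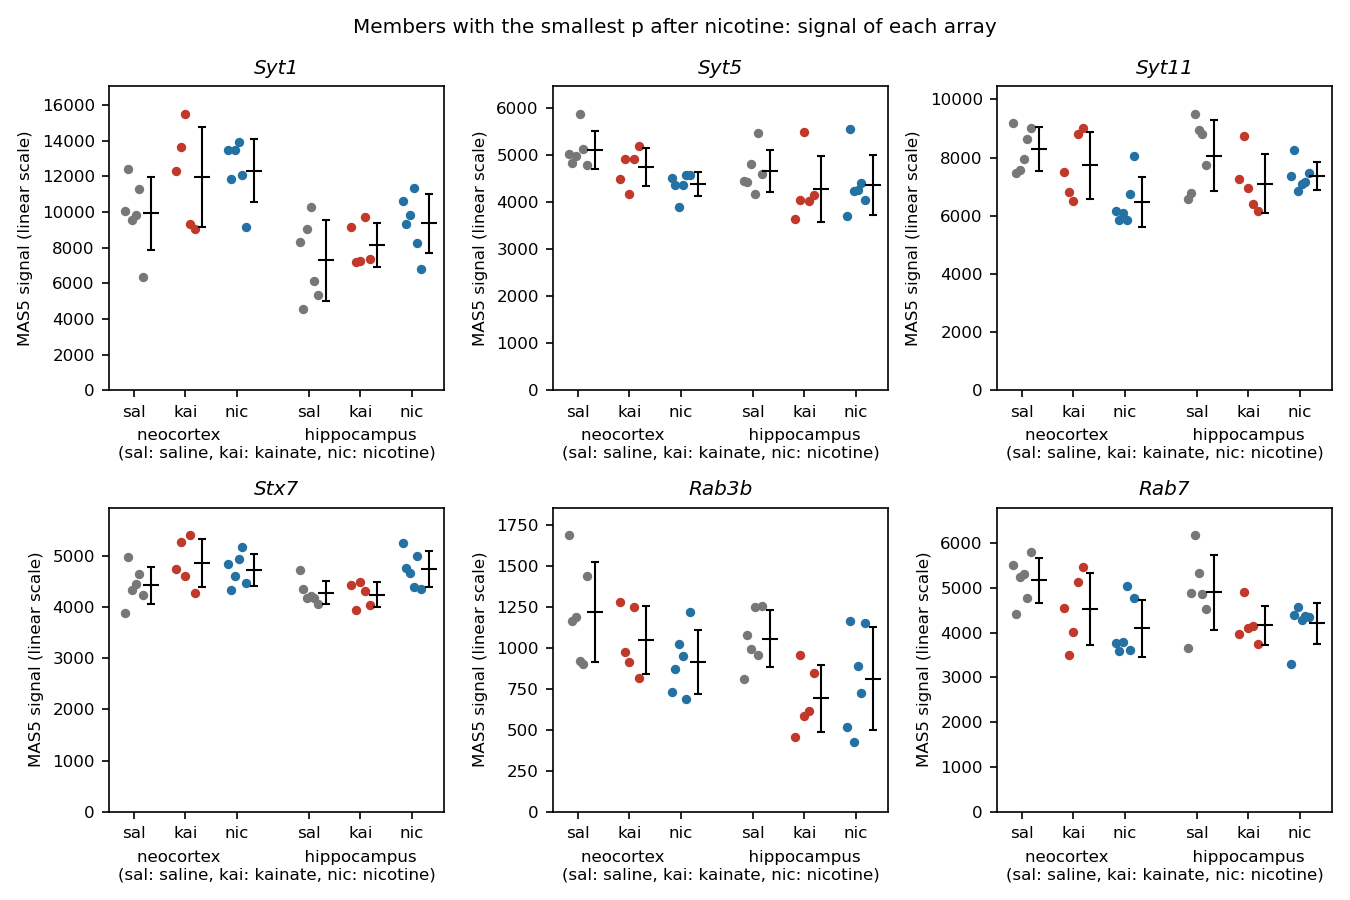
MAS5 signal (linear scale) of the 6 members that had the smallest p after nicotine, 3 in each region (Syt1, Stx7 and Rab3b in the hippocampus, Syt11, Rab7 and Syt5 in the neocortex), 1 point per array, for saline (grey), kainate (red) and nicotine (blue) in each region, with the group mean and SD as a bar. In the neocortex the nicotine points of Syt5 lie between 3902 and 4588, under the lowest saline point at 4784, and the saline and nicotine groups of the other 5 genes overlap.

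Set against nicotine rather than saline, the kainate hippocampus again had 1 called member of 77, Rab5if, against 2.57% of all genes. Both comparisons share the kainate arrays, so their values for Rab5if are not independent. The nicotine hippocampus had 2481 at the lowest, 2899 at the median and 3218 at the highest, all above the 5 kainate arrays (3.04% of all tested genes were separated), and the log2 difference was -0.44 ± 0.11 SE (limma adjusted p 0.0349). That call was lost without kainate hippocampus replicate 3 (adjusted p 0.09) or 4 (0.123), and without nicotine hippocampus replicate 2 (0.0616), 4 (0.0731), 5 (0.0925) or 6 (0.081). Vamp8 read 0.54 ± 0.17 SE (adjusted p 0.134). Same-numbered arrays of these groups deviated together weakly (correlations 0.118 to 0.278). Only 2 of 5 matched best with their own number, and the labels do not say that they are paired. With the replicate block as an alternative, 2 members were called, Rab5if lower and Vamp8 higher (0.60, limma adjusted p 0.027). The share of all genes called in that fit was not counted. Vamp8 was also called without kainate hippocampus replicate 3 (adjusted p 0.0369). Snapin, which binds Snap25 and also serves lysosome transport, had 1882, 2043, 2112, 2117 and 2164 with kainate and 1328 at the lowest, 1685 at the median and 1879 at the highest with nicotine. All kainate arrays lay above all nicotine arrays, and the difference of 0.34 ± 0.11 SE did not pass (adjusted p 0.162). All 8 tested synaptotagmins were negative here, from -0.30 to -0.03, and none was called, while the dimmer probe sets of Syt2 and Syt3 read 0.49 and 0.01. Of all 77 tested members 53 were negative in this comparison, and the median of all genes was -0.01. Beside these values, 10 of 11 microglia and macrophage markers were higher than with nicotine, whose summed signal of them was 16337 to 20267, against 49074 to 78251 with kainate. Astrocyte markers had 3 higher of 7 (61459 to 71158 against 41508 to 48142), and interneuron markers 2 lower (Sst, Slc32a1) and 1 higher (Npy) of 7 (22816 to 25613 against 26109.9 to 32158). Of 5 granule and CA cell markers Calb1 was lower (8104 to 8836 against 10364 to 11696), and the part of these lists in the values of the members was not tested.

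Whether a drug acted differently in the 2 regions was tested directly. For the kainate effect limma called 0 of the 78 members (0.918% of all genes were called), and 7 passed at an unadjusted p under 0.05 (8.97% of them, against 9.28% of all genes). Snapc3 came first, with an effect in the hippocampus minus that in the neocortex of -0.81 ± 0.23 SE (adjusted p 0.121). Vamp8 followed at 0.60 ± 0.20 SE (adjusted p 0.248) and Rab5if at -0.39 ± 0.13 SE (adjusted p 0.251). The fall of Rab5if in the hippocampus was not shown to differ from its neocortical change of -0.04 ± 0.08 SE. For nicotine 0 of 78 members were called by limma (0% of all genes) and 1 passed at an unadjusted p under 0.05 (1.28% of them, against 3.62% of all genes), namely Rab21, an endosomal GTPase, at -0.25 ± 0.12 SE. Rab10os read 0.34 ± 0.17 SE and Syt3 0.47 ± 0.24 SE, and all 3 had an adjusted p of 0.994. The dimmer probe set of Syt3 read -1.11 in the same test, so no direction can be given for that gene.

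**Figure D5:**
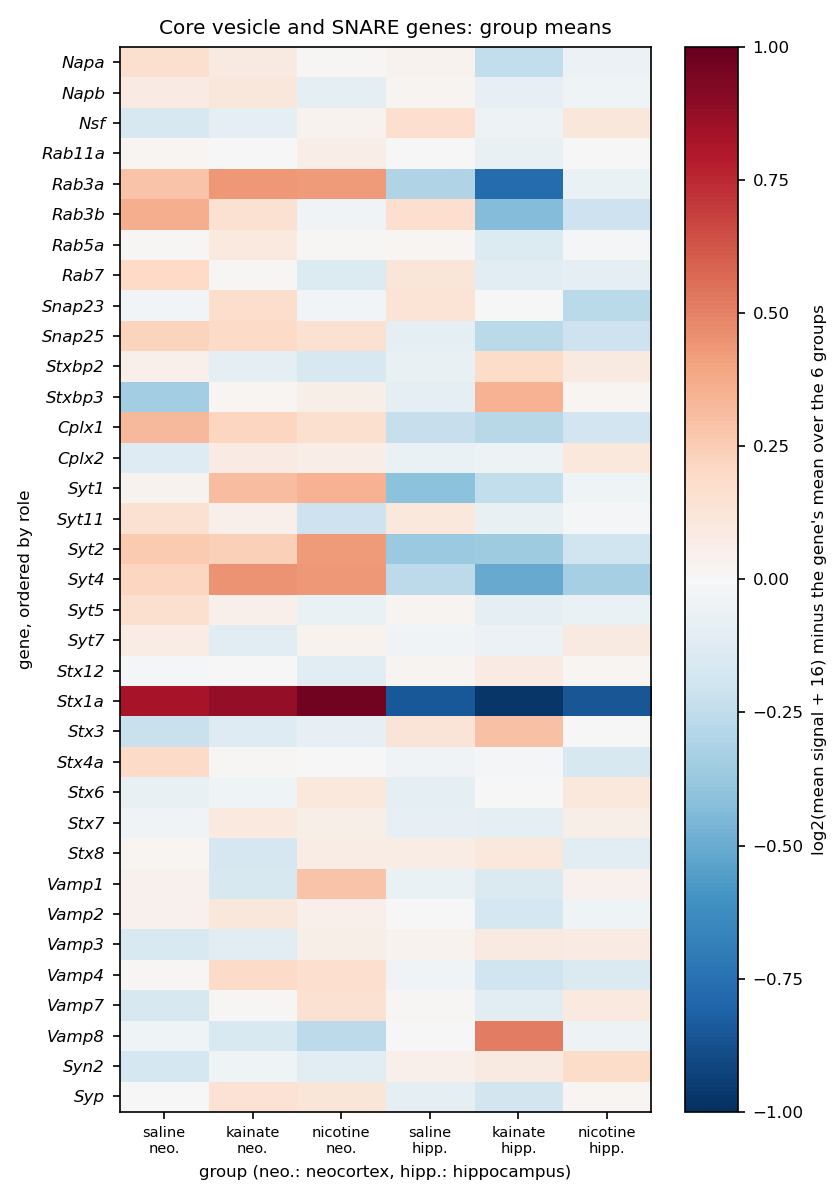
Group means of the 35 measured genes of the fixed core list in the 6 groups, as log2(mean signal + 16) minus the gene's own mean over the groups, with red above and blue below. The row of Stx1a divides the regions most deeply. Rab3a, Vamp8 and Syt4 depart most from their mean in the kainate hippocampus among the other rows, and none of these 3 was called there.

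Across the 6 groups most core genes held a narrow range. Of the vesicle proteins, Syp, an integral vesicle protein, ran from a mean of 3806 in the kainate hippocampus to 4789.9 in the kainate neocortex, and Syn2, which tethers vesicles to actin, from 6578 in the saline neocortex to 8463 in the nicotine hippocampus. Vamp2 ran from 24479 to 29860.0 between the kainate groups. The plasma membrane syntaxin Stx4a lay between 1145 and 1465, and the endosomal syntaxin Stx12 between 3709 and 4218. Rab3a, the main Rab of the synaptic vesicle, was measured poorly: its brightest probe set gave 656 ± 535 (SD, n = 6) in the saline neocortex, with single arrays from 249 to 1655, and 216, 255, 295, 318 and 459.8 in the kainate hippocampus. A spread of that size leaves its kainate change in the hippocampus at -0.35 ± 0.36 SE (adjusted p 0.731). Rab5a and Rab11a, of early and recycling endosomes, were steadier, at -0.17 ± 0.13 SE and -0.07 ± 0.10 SE in the same comparison.

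Not all 85 genes could be tested. Rab17, Rab20, Syt6, Syt8, Syt9, Syt10 and Vamp5 lay under the level filter in every fit, and Rab35 did in the hippocampus as well, which leaves 78 and 77. Syt10 had a mean of 154 in the saline neocortex and 117 in the saline hippocampus, and Rab35 173 and 130.3, so these genes lie near the filter level and carry little signal. The 25 dimmer probe sets gave no call in any comparison where they were tested. Among them Syt3 read 1.06 (adjusted p 0.337) and Vamp4 0.72 (adjusted p 0.37) after nicotine in the neocortex, while their brightest probe sets read -0.21 and 0.15. Both Vamp8 probe sets carry a suffix for probes shared within a sequence family, and they read 0.49 and 0.45 after kainate in the hippocampus.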

How the data were processed

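Total RNA (TRIzol, 12 µg) was labelled as biotin cRNA, per the labels' protocols. The authors' deposited values are MAS5 signal intensities (the software is named, without its version, in the submitters' processing notes, and the scale is that of the values). The table holds 12488 probe sets, and 66 controls were left out; of the rest 10833 had 1 symbol, 396 several and 1193 none. The mean of each array with 2% trimmed at either end was 1000.5 to 1000.6. No 2 arrays were identical (0 pairs), and 85 of 85 members matched the RefSeq gene table by Entrez number.

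Intensities became log2(signal + 16), scaled as deposited. limma 3.58.1 in R 4.3.3 (lmFit, eBayes with trend) was fitted to all probe sets at or above the 30th percentile: 17 arrays of a region for drug comparisons, 34 for comparisons across regions. Adjusted p-values are Benjamini-Hochberg over all tested probe sets. They grade a difference against the spread between arrays, whose number limits the precision. The script was tested on simulated data. The median correlation of same-numbered arrays was highest between the kainate and nicotine hippocampus (0.118 to 0.278 over 5 pairs). There 2 of 5 matched best with their own number, which does not establish a pairing. Alternatives were the pseudocount, filter, scaling, array weights, replicate block, arrays fitted, mean of probe sets, left-out arrays and, chosen after seeing the data, the level of 9 hybridization control probe sets as a covariate. The named genes are a fixed core of 51 (35 measured), called members, and the 3 smallest p where fewer than 3 were called. Members and lists were chosen with earlier results of these data known. Sequences are RefSeq's (GRCm38.p6). Figures used Python 3.11.15 and matplotlib 3.10.9.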

Additional observations from a re-analysis of the deposited data

Results flagged for a closer look

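Of 288 checks of a named gene in a group, 18 (6.25%) found 1 array that stood apart from the rest of its group by Dixon's criterion, where chance gives about 1 in 20. In the saline neocortex, replicate 6 was high for Rab3a (1654.8, the others 249.3 to 763.9) and Syt7 (1217.8, the others 459.9 to 588.6), replicate 1 for Stx6 (1045.9) and replicate 4 for Syt5 (5888.2). In the saline hippocampus, replicate 2 was low for Syn2 (5539.5, the others 7919.1 to 8364.2). In the kainate neocortex, replicate 5 was high for Rab33a (1205.3) and low for Stx4a (1018.4) and Syt2 (726.5, the others 1381.3 to 1524.8), replicate 2 was high for Stxbp2 (1279) and replicate 4 low for Syp (2785, the others 4919.8 to 5652.9). In the kainate hippocampus, replicate 1 was low for Stxbp2 (920.5) and replicate 3 high for Syt5 (5493.4, the others 3649.3 to 4153.2). In the nicotine neocortex, replicate 6 was high for Cplx1 (16734.4, the others 10145.2 to 12422.2) and low for Snap23 (94.3) and Snap91 (1569.9, the others 2809.7 to 3241.9), and replicate 3 was low for Syt5 (3901.8). In the nicotine hippocampus, replicate 2 was low for Snap25 (22889.9, the others 32324.5 to 35785.1) and replicate 1 for Rab7 (3294.4). All values are MAS5 signals.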

How the results depend on the processing

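The count of members called between the saline regions stayed between 4 and 8 in all 11 alternatives and when each saline array was left out, and the 6 genes kept their direction; quantile normalization gave 0 higher and 6 lower. Rab33a missed the threshold with only the saline arrays fitted (adjusted p 0.0531), Rab1a in 3 of 11 alternatives and Rab3ip in 6 of 11. For kainate against saline in the hippocampus, 1 called member became 4 with median centring, 4 with all 34 arrays fitted and 3 with the replicate block, and 0 to 2 when 1 array was left out (2 without kainate replicate 1, and 0 without kainate replicate 3 or 4 or saline replicate 1, 2, 4 or 5). The share of all genes called rose as well with median centring, from 3.04% to 5.65%. It was not counted in the other fits named here, so these counts are no result about the members. For kainate against nicotine in the hippocampus, 1 called member became 2 with array weights, 2 with the replicate block and 2 with all 34 arrays, and 0 to 1 when 1 array was left out (0 without kainate replicate 4 or nicotine replicate 2, 4, 5 or 6). The share of all genes called was not counted in these fits either. The other 5 comparisons gave 0 calls in every alternative. Syt3 changed sign for the nicotine effect across regions, to -0.32 with the mean over its probe sets, whose dimmer one reads the other way. Outside kainate against nicotine in the hippocampus, the replicate block changed no count by over 1.5 times except that given for kainate against saline there. It moved Snap91 after kainate in the neocortex from 0.36 to 0.23. Rab5if after kainate was lost with array weights (adjusted p 0.0656), and the cause was not tested. The count of called members stayed at 1 in that fit, through another gene. Signals near the filter level limit the dim members, among them Sytl4, Snap23 and Stx8.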
